A study of Mus musculus with 8 samples.

Results

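Of the 130408 nuclear peaks of 5-hydroxymethylcytosine (5hmC) in adult mouse liver, 33911 (26.0%, exact 95% interval 25.8 to 26.2%) overlapped no peak of embryonic stem cells (ESCs), embryonic fibroblasts (MEFs) or brain by even 1 bp. These peaks are called liver-only below, and the remaining 96497 liver peaks are called other liver peaks. The liver-only peaks covered 32.4 Mb, or 19.1% of the bp under liver peaks. They lay mostly in introns, were narrower and had lower scores than other liver peaks, and were dense at genes of bile acid transport, coagulation, complement and hepatocyte transcription factors. They were chosen by position, so their absence from the 3 other lists is the definition and not a finding.

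Each library was made by GLIB-Seq, in which 5hmC is glucosylated, oxidised with periodate and biotinylated so that fragments carrying it can be pulled down and sequenced. Liver and brain came from 8-week-old C57BL/6 mice, MEFs from C57BL/6 embryos, labelled embryonic day 11 although the methods give a later day, and ESCs were the E14 line. A pair of further libraries came from E14 ESCs transfected with a hairpin vector against GFP (shGFP) or against the Polycomb subunit Suz12 (shSuz12), and these were not used to choose the liver-only peaks. Each condition had 1 library, so no spread between replicates and no test between conditions can be given, and the exact (Clopper-Pearson) 95% intervals of shares cover counting error only.

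The deposited lists give positions and a MACS score, which is 10 times the negative log10 of the p-value, and no read counts, so that sequencing depth is unknown. The lowest score was 80 in the liver and ESC lists, 30 in the MEF and brain lists, 50.02 in shGFP and 30.3 in shSuz12, so that each list stops at its own level. By this difference a liver peak was set against weaker peaks of MEFs and brain than of ESCs. With a score of at least 80 asked of every list, 55896 liver peaks (42.9%) were liver-only, and where no peak of the other cell types within 1 kb was allowed, 18672 (14.3%) were. The liver was sequenced as whole tissue, in which hepatocytes are mixed with Kupffer, endothelial, stellate and bile duct cells, and a peak missed because few cells of a type were present cannot be told apart from 5hmC being low in those cells.

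5hmC is made from 5-methylcytosine by the Tet dioxygenases, mostly at CpG dinucleotides. It is an intermediate of demethylation and also a lasting mark of gene bodies and enhancers, and its pattern differs between tissues. Hepatocytes, the main cells of liver, secrete most plasma proteins, make bile acids, urea and glucose, and break down drugs, under control of factors such as Hnf4a, the Hnf1 and Foxa proteins, C/EBP proteins and nuclear receptors.

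The middle 300 bases of 5 liver-only peaks are shown to give the kind of sequence that carried the mark. For Nr1h4 this is the highest-scoring liver-only peak of all, and for the others it is the highest-scoring one within the gene or 10 kb of it. The sequences are the plus strand of mm9 (NCBIM37), 5′ to 3′, with each CpG in capitals.
Nr1h4, chr10:88957214-88957513: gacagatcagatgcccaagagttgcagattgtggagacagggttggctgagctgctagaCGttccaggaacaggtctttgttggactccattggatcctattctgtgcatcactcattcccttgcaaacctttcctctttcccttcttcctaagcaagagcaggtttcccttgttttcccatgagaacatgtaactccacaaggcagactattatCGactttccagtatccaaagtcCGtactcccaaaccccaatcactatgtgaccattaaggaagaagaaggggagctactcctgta
Apob, chr12:8013731-8014030: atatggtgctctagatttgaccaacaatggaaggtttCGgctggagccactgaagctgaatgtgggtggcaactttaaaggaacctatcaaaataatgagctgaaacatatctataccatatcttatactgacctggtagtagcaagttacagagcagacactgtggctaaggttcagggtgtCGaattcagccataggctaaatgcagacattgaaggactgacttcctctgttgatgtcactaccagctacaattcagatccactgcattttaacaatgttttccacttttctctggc
Abcb11, chr2:69075967-69076266: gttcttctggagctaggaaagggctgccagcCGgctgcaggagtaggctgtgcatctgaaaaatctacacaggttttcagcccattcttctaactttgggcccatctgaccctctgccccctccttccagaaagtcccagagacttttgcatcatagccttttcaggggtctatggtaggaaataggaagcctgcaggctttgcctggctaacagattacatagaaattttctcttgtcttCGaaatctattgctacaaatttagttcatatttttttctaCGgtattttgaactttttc
Hnf4a, chr2:163402579-163402878: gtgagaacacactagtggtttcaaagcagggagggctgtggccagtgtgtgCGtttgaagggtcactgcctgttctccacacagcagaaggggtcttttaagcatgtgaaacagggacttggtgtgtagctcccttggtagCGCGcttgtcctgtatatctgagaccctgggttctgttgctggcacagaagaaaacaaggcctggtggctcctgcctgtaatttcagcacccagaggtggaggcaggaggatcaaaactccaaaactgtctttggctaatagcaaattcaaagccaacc
Alb, chr5:90885646-90885945: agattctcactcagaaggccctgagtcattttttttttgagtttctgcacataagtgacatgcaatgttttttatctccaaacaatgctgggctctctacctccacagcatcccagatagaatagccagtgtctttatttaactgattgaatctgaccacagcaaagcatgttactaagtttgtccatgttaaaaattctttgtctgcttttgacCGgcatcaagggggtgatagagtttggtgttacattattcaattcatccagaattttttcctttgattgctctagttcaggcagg
The windows held 3, 2, 3, 3 and 1 CpGs, respectively. Their GC content was 47.0, 42.3, 44.3, 51.3 and 39.0%. The Nr1h4 peak was intronic, the Apob peak exonic, the Abcb11 peak ran across the 3′ end of the gene, the Hnf4a peak lay past the end of its gene and the Alb peak upstream of it. None of the 5 windows lay within 1 kb of the gene's TSS (transcription start site).

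Over the middle 300 bp of all 33911 liver-only peaks, the median GC content was 45.3% and the median observed to expected CpG ratio 0.256. Other liver peaks were richer in both, with 48.3% and 0.295. ESC-only peaks, chosen from the ESC list by the mirrored rule, had 50.7% and 0.321, brain-only peaks 45.7% and 0.272, and MEF-only peaks 44.3% and 0.292. Windows placed every 30 kb along the genome had 41.7% and 0.150, and 18.9% of them held no CpG, against 1.04% of the liver-only windows. Thus liver-only peaks lay in sequence with more CpG than the genome at large, but far from the level of windows at protein-coding TSSs, which had 55% and 0.534. The difference from other liver peaks was present within segments, with a median GC content of 47.0 against 52.3% in exons, 44.7 against 47.7% in introns and 46.0 against 48.3% between genes.

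Core motifs of liver factors were counted on both strands of the same windows. The forkhead core TGTTTAC was found in 5.28% of liver-only windows (5.05 to 5.53%), 4.55% of other liver windows (4.41 to 4.68%), 4.49% of brain-only windows, 4.48% of genome windows and 3.11% of promoter windows. When liver-only, other liver, brain-only, ESC-only and genome windows were split into 5 classes of GC content, the motif grew rarer with GC content in each set. Below 40% GC it was found in 7.95% of liver-only (7.24 to 8.70%) and 6.95% of other liver windows (6.40 to 7.53%). In the next classes the shares were 6.03 against 5.87% at 40 to 45% GC, 4.53 against 5.06% at 45 to 50%, 3.43 against 3.41% at 50 to 55% and 2.04 against 1.94% at 55% or more. Liver-only windows were thus the higher in 4 of 5 classes, but in each class the intervals of the 2 sets overlapped. Genome windows held the motif at 5.51, 4.39, 3.74, 3.02 and 1.57% by class, below both liver sets each time. The intervals of liver-only and genome windows were apart in the classes below 50% GC and overlapped in the higher ones. ESC-only windows held the forkhead core at 4.07% when pooled. By class they held it at 8.56, 6.59, 4.55, 3.91 and 2.17%, above liver-only windows each time, though with overlapping intervals. The HNF4A motif CAAAGTCCA was found in 0.587% of liver-only windows (0.508 to 0.674%) and 0.547% of other liver windows (0.502 to 0.596%), against 0.425% in brain-only, 0.404% in ESC-only, 0.356% in genome and 0.456% in promoter windows. The liver sets could therefore not be separated from each other by this motif, while both lay above the genome windows when all GC contents were pooled. Within the GC classes, the intervals of liver-only and genome windows overlapped in 4 of 5, the exception being 40 to 45% GC with 0.669% (0.523 to 0.843%) against 0.380% (0.303 to 0.471%). The C/EBP motif TTGCNCAA was found in 3.19, 2.80 and 2.79% of liver-only, other liver and genome windows, and in 3.04% of MEF-only and 2.80% of promoter windows. The HNF1 motif TTAATNATT was found in 1.81% of liver-only and 1.23% of other liver windows, but in 1.94% of MEF-only, 2.51% of genome and 1.33% of promoter windows. The HNF1 gaps between liver-only, other liver and genome windows did not hold at like GC content. At 40 to 45% GC the shares were 2.09, 2.06 and 1.74% in liver-only, other liver and genome windows, and at 45 to 50% GC they were 1.16, 1.07 and 0.885%. The Sp motif GGGCGG, common in CpG-rich promoters, was found in 3.76% of liver-only, 6.72% of other liver, 2.80% of genome and 43.4% of promoter windows. A motif match describes the letters in a window and not binding. Matches of different motifs that overlapped each other were each counted.

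Liver-only peaks had a median width of 863 bp (interquartile range 731 to 1058 bp, highest 5550 bp) and a median score of 121 (95.7 to 169.5, highest 1384). Other liver peaks had medians of 1108 bp and 187. The share of liver peaks that were liver-only fell with every step of score, from 43.2% at scores of 80 to 100, through 26.3% at 150 to 200, to 2.83% at 500 to 1000 and 0.492% (15 of 3048) at 1000 or more. It also fell with width, from 47.1% under 750 bp to 4.14% at 2000 bp or more. Width and score moved together, and at equal score the 2 sets of liver peaks were close in width, with medians of 722 against 753 bp at scores of 80 to 100 and 1702 against 1751 bp at 300 to 500. Both quantities chose the members in part, because a wide peak has more chance to touch another list's peak, so the falls are a description.

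**Figure D1:**
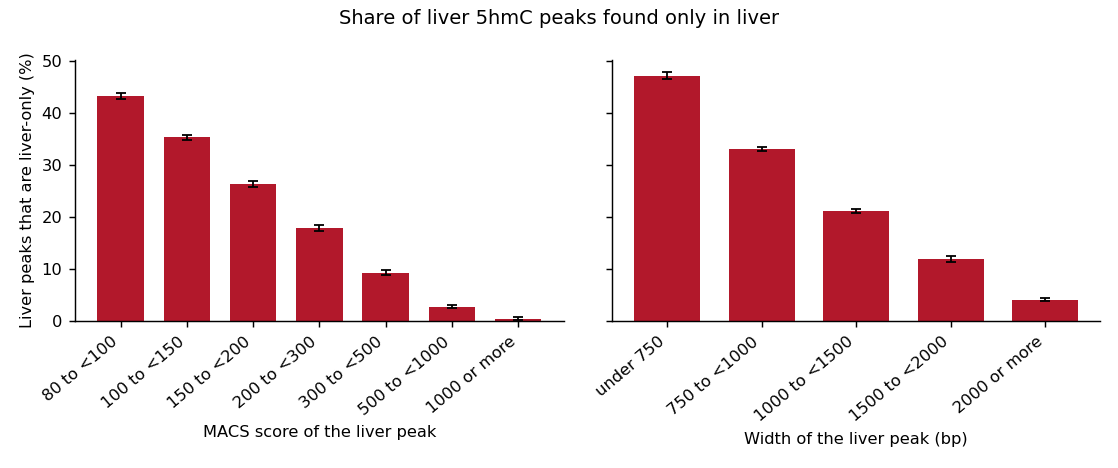
Share of liver peaks that were liver-only (y axis, percent) by MACS score (left) and by width in bp (right). Bars are shares of all liver peaks in the class and whiskers exact 95% intervals, for counting error only. The share falls from 43.2% in the lowest score class to 0.492% in the highest, and from 47.1 to 4.14% with width.

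Around the edge of the rule, 4270 liver-only peaks (12.6%) had an ESC, MEF or brain peak within 200 bp, and their median score was 122 and median width 869 bp. Just outside it, 2405 other liver peaks overlapped such peaks by 200 bp or less in total, with medians of 124 and 880 bp. The median gap from a liver-only peak to the nearest peak of ESCs, MEFs or brain was 1189 bp (interquartile range 438 to 2922 bp), 44.96% had one within 1 kb and 5.75% had none within 10 kb. For each list alone the median gap was 3405 bp to ESC, 3023 bp to MEF and 3241 bp to brain peaks. Many liver-only peaks thus stood next to a peak of another cell type, and 88 stood more than 100 kb from any.

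The ESC libraries that the rule did not use held few of these positions. Peaks of shGFP overlapped 2045 liver-only peaks (6.03%, 5.78 to 6.29%), against 44.3% of other liver peaks, and peaks of shSuz12 overlapped 2703 (7.97%, 7.68 to 8.26%), against 39.7%. Other liver peaks that no ESC peak touched are the nearer comparison, since both sets then lack ESC peaks: there the shares were 10.8% for shGFP (10.5 to 11.2%) and 13.2% for shSuz12 (12.9 to 13.6%). Only 498 liver-only peaks (1.47%) overlapped peaks of both. The shGFP peaks at liver-only positions had a median score of 67.1, against 98.8 at other liver peaks, and those of shSuz12 46.6 against 55.1. For these scores the other liver peaks include those shared with ESCs, and the nearer comparison was not made. A total of 29661 liver-only peaks were touched by no peak of the 5 other libraries.

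By midpoint, 20116 liver-only peaks (59.3%, 58.8 to 59.8%) lay in introns of protein-coding genes, 10553 (31.1%, 30.6 to 31.6%) between genes, 2390 (7.05%, 6.78 to 7.33%) in exons and 852 (2.51%, 2.35 to 2.68%) within 1 kb of a TSS. Set against the bp of each segment, exons held 2.78 times, introns 1.74 times, promoters 1.58 times and intergenic sequence 0.503 times their share of the genome. Other liver peaks were more often exonic (10.7%) and less often intergenic (25.3%), and about as often at promoters (2.60%). Within single classes of score the exonic share of liver-only peaks was also the lower, with 6.56 against 9.57% at scores of 80 to 100 and 10.2 against 13.02% at 300 or more. Of the liver peaks themselves, 18.8% of the exonic, 25.3% of the intronic, 25.4% of the promoter and 30.2% of the intergenic ones were liver-only. The mirrored sets differed in location, with 57.2% intronic and 0.712% promoter peaks among brain-only peaks, 57.5% intergenic peaks among MEF-only peaks, and 10.3% exonic and 3.70% promoter peaks among ESC-only peaks. The brain and MEF lists reach down to a score of 30. At scores of at least 80, brain-only peaks were 68.4% intronic, 25.6% intergenic and 0.464% at promoters, and MEF-only peaks 58.9% intergenic. Among the exonic liver-only peaks, 53.1% lay in coding sequence, 27.7% in 3′ untranslated and 2.05% in 5′ untranslated sequence. The coding share was close to this in exonic other liver (57.8%), brain-only (57.0%) and MEF-only peaks (54.2%). ESC-only peaks stood apart, with 74.6% coding.

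**Figure D2:**
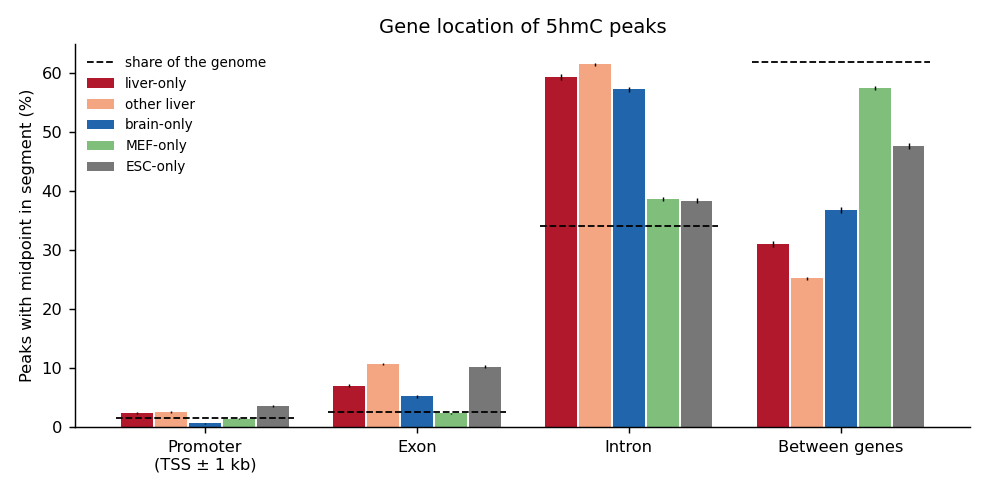
Share of peaks with their midpoint in each segment (y axis, percent) for liver-only, other liver, brain-only, MEF-only and ESC-only peaks, with exact 95% intervals and the share of the genome as dashed lines. Liver-only peaks are 59.3% intronic and 31.1% intergenic, against 57.5% intergenic among MEF-only peaks. Brain-only and MEF-only peaks reach down to a score of 30, the liver and ESC sets to 80.

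The median distance from a liver-only peak to the nearest protein-coding TSS was 22491 bp. Within 1 kb lay 2.51%, at 1 to 10 kb 26.5%, at 10 to 50 kb 43.2%, at 50 to 100 kb 14.8% and beyond 100 kb 13.1%, and 63.3% lay downstream of that TSS. Around the TSSs the peaks formed a shoulder on each side and a gap just inside the gene. There were 812 midpoints at 1 to 2 kb upstream, 641 in the last kb before the TSS, 249 in the first kb of the gene and 785 in the next. Other liver peaks had the same gap, whereas ESC-only peaks were densest in the first kb of the gene.

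**Figure D3:**
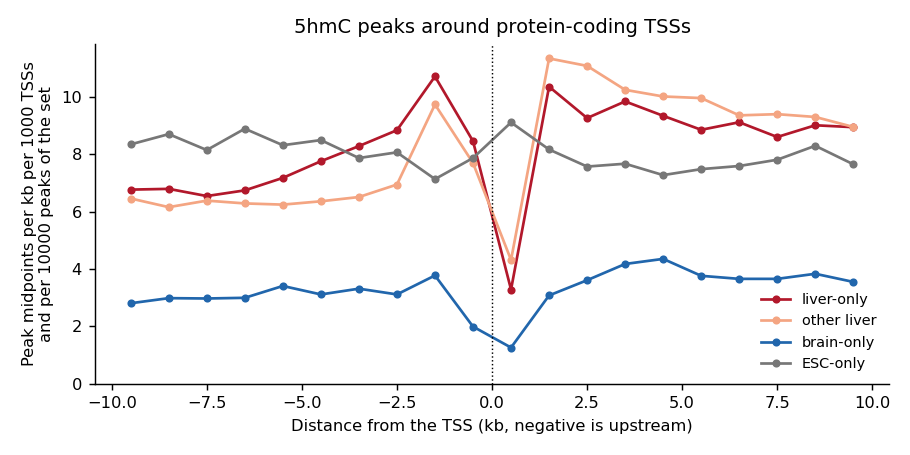
Midpoints of liver-only, other liver, brain-only and ESC-only peaks around protein-coding TSSs, per kb, per 1000 TSSs and per 10000 peaks of the set (y axis), against distance from the TSS in kb (x axis). Liver-only peaks drop to 3.28 in the first kb of the gene, from 10.7 at 1 to 2 kb upstream.

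Gaps between peaks and filled windows were measured for liver-only peaks alone, so these values cannot be called particular to them. The median gap from a liver-only peak to the next was 4679 bp, 51.5% of them had another within 5 kb and 68.2% within 10 kb, and 9380 of 26558 windows of 100 kb (35.3%) held at least 1. The autosomes ranged from 9.37 liver-only peaks per Mb on chromosome 8 to 22.0 on chromosome 19. Other liver peaks were also densest on chromosome 19, at 57.4 per Mb, and stood at 46.0 per Mb on chromosome 8. On chromosome 8, 16.9% of liver peaks were liver-only, the lowest share of the autosomes, and 68.1% of its liver peaks overlapped an ESC peak, against 38.5 to 54.6% on the other autosomes. Chromosome X held 0.360 liver-only peaks per Mb, as the liver list had 104 peaks there in all, and the other 5 lists between 22 and 757.

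Protein-coding gene spans held 22798 liver-only midpoints (67.2%). Of 22225 genes, 7067 (31.8%) held at least 1 liver-only peak, 1415 (6.37%) at least 5, 417 at least 10 and 88 at least 20, and 1122 genes (5.05%) held 50% of all pairs of gene and peak. The genes with many were long, with a median of 166828 bp for those with 10 or more, against 15525 bp over all genes. Over all gene spans there were 0.229 liver-only peaks per 10 kb.

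Dpyd, which encodes dihydropyrimidine dehydrogenase, the first enzyme of pyrimidine breakdown, held most liver-only peaks, 78 of its 104 liver peaks (chr3:118265047-119135836, plus strand). The same span held 4 peaks in ESCs, 25 in MEFs and 11 in brain. At 0.896 liver-only peaks per 10 kb, Dpyd was well above the level of all gene spans, although it is 870790 bp long. Zbtb20, a zinc-finger repressor that silences alpha-fetoprotein in adult liver, held 62 of 170 liver peaks, with 19 ESC, 94 MEF and 103 brain peaks. Sox5, a transcription factor of cartilage and neurons, held 59 of 235, with 75, 233 and 176 peaks in ESCs, MEFs and brain. Unlike Dpyd, both were also well filled in MEFs and brain, so liver-only peaks were the smaller part there. Adk, the adenosine kinase, held 58 of 148 at 1.47 per 10 kb, and Sntb1, a syntrophin of the membrane skeleton, 42 of 64 at 1.57 per 10 kb, the highest density of the 10. Ptprd and Ptprk, receptor tyrosine phosphatases, held 50 of 98 and 42 of 87, the kinase gene Camk1d 44 of 124, and Immp2l, for a peptidase of the mitochondrial inner membrane, 42 of 73. Ptprd (0.220 per 10 kb) and the growth factor receptor gene Fgfr2 (41 of 233, 0.136 per 10 kb) were no denser than gene spans in general. The annotated span of Fgfr2 is 3009069 bp, and ESCs, MEFs and brain had 382, 504 and 384 peaks in it.

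Ranked by liver-only peaks per 10 kb among genes of at least 5 kb with at least 3 of them, none of these 10 genes remained. The 10 densest were Serpina5 (5.97 per 10 kb), Ctf1 (5.50), BC030499 (5.03), Cryba1 (4.50), Zkscan14 (4.32), Lgals3bp (4.28), Hinfp (4.0), Apob (3.83), Otub1 (3.70) and BC089597 (3.69). For 9 of them the rate rested on 3 or 4 peaks in a short gene. Serpina5, which encodes a serine protease inhibitor of plasma, held 3 liver-only peaks in 5025 bp and no peak of ESCs, MEFs or brain. Apob, which encodes the main protein of very low density and low density lipoproteins, was the exception, with 15 peaks in 39188 bp (chr12:7984454-8023641, plus strand).

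All 15 liver peaks with their midpoint in Apob were liver-only, and they ran from 5984 bp to 39141 bp past the TSS, with scores from 95.7 to 812. ESCs had 1 peak in the gene, MEFs 2, brain 1, shGFP 1 and shSuz12 none by midpoint. The peaks of the other cell types were at or next to the TSS, where they covered 1618, 1532 and 1534 bp of the 2000 bp around it in ESCs, MEFs and brain, against 652 bp in liver. The ESC, MEF and brain peaks there crossed the TSS, while the liver peak lay wholly upstream of it, at -1164 to -349 bp. From 5984 bp to the end of Apob, peaks were found in liver alone of these lists. The strongest body peak, with the sequence printed above, was exonic and 2867 bp wide.

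Abcb11, which encodes the bile salt export pump, had 30 liver-only peaks of 34 liver peaks within the gene and 10 kb on each side (chr2:69076339-69180671, minus strand). In the gene itself 23 of 27 liver peaks were liver-only, and ESCs had 1 peak, MEFs 6, brain none, shGFP 3 and shSuz12 2. The scores of the 30 ran from 80.9 to 744, with 1 peak upstream of the TSS and the others spread over the whole gene and past its end. The strongest, at 102655 to 106454 bp from the TSS, lay across the end of the gene.

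**Figure D4:**
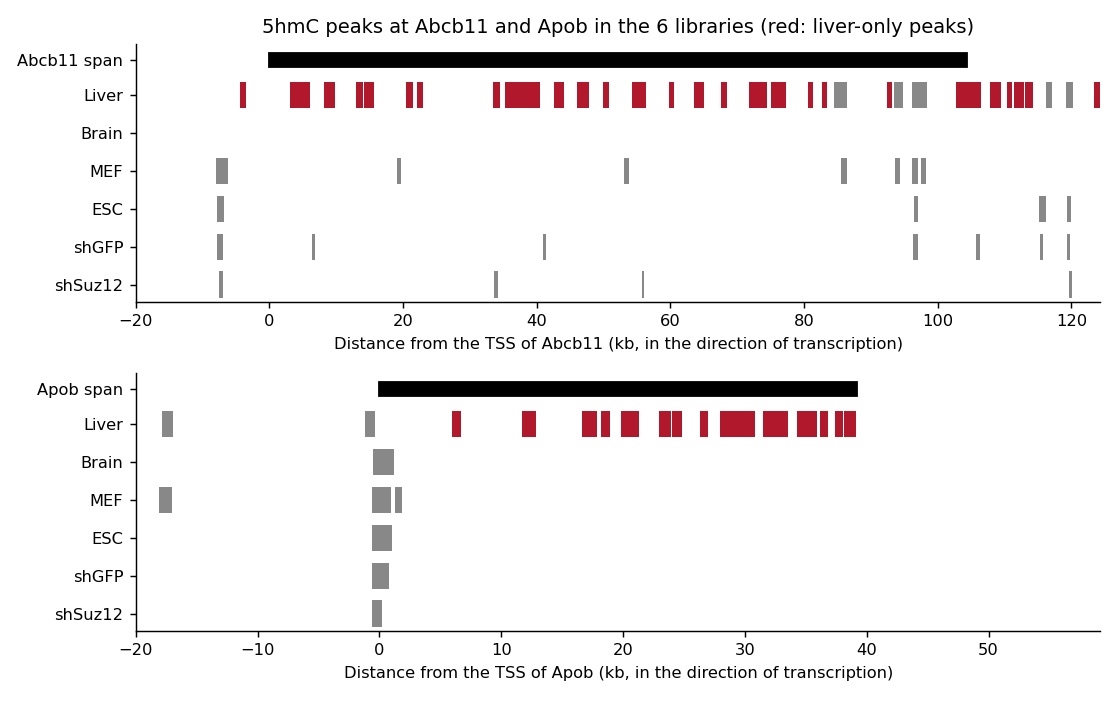
Peaks at Abcb11 (top) and Apob (bottom) in the 6 libraries, by distance from the TSS in kb in the direction of transcription (x axis). Each box is a peak to scale, liver-only peaks are red, other peaks grey, and the black bar is the gene. In the gene, 23 of 27 liver peaks at Abcb11 and 15 of 15 at Apob are liver-only.

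The textbook genes of hepatocytes were collected in 11 lists of 192 different genes. At least 1 liver-only peak lay within the span or 10 kb of 174 of them (90.6%), against 47.5% of all protein-coding genes, and they had 10.4 liver-only peaks per 100 kb against 2.41, a ratio of 4.32. A peak near neighbouring genes counts for each of them. Other liver peaks were denser there by 1.68 times, while brain-only, MEF-only and ESC-only peaks stood at 0.394, 0.560 and 0.572 times their own level over all genes. By their rule these mirrored sets hold no peak that touches a liver peak. Liver peaks of both kinds stood at 22.7 per 100 kb near the hepatocyte genes, against 9.70 over all genes. The low ratios of the mirrored sets are thus set in part by the rule and are a description. Of all liver peaks near these genes 46.0% were liver-only, against 24.9% near all genes. The excess was present at each gene length, with 81.8 against 28.9% of genes under 10 kb, 92.3 against 54.2% at 10 to 30 kb, 95 against 64.1% at 30 to 100 kb and 100 against 63.9% at 100 kb or more.

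Bile acid synthesis and transport had the most liver-only peaks per length, 13.7 per 100 kb with all 13 genes reached, and 69.6% of its liver peaks were liver-only. After Abcb11 came Abcb4, the phospholipid export pump, with 17, Cyp7b1, an oxysterol hydroxylase, with 15 and Abcc2, an export pump for conjugates, with 13. Cyp7a1, the rate-limiting enzyme of bile acid synthesis, had 1, with a score of 102, past the end of the gene. Other liver peaks were below their level over all genes here (0.820 times), which set this list apart from the 10 other hepatocyte lists, where they were above it.

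Coagulation factors had 13.2 liver-only peaks per 100 kb near 15 of 16 genes, and complement 11.3 near 15 of 15. F5, coagulation factor V, had 15, and Cpb2, Klkb1 and Plg, genes of fibrinolysis and the contact system, had 12 each. F9, on chromosome X, had none. Hc, complement component 5, had 15, Masp1, a protease of the lectin pathway, 12, C8b 10 and C4bp, an inhibitor of the classical pathway, 9. Plasma carriers and protease inhibitors had 9.30 per 100 kb near 20 of 22 genes, led by Cp (ceruloplasmin) with 11 and by Gc, Hpx and Itih3 with 6 each, and Apcs and Serpina1a had none. Alb, the albumin gene, held no liver-only peak in its span but had 5 within 10 kb, 3 upstream and 2 downstream, with scores from 91.1 to 229.

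Lipoprotein and cholesterol transport had 8.28 per 100 kb near 15 of 18 genes, and here 29.4% of the liver peaks were liver-only, the lowest share of the 11 lists. Lipc, hepatic lipase, had 21, Apob 15, Abca1, a cholesterol exporter, 11 and Apoh 8, and Apoa1 had 2, both outside its span. Apoa2, Lcat and Abcg5 had none. Urea cycle and amino acid breakdown had 9.14 per 100 kb near 15 of 18 genes, with Cps1, the entry enzyme of the urea cycle, at 20, Hgd at 9 and Uroc1 at 8. Agxt, Glul and the X-linked Otc had none. Cps1 had no ESC peak, 5 MEF and 6 brain peaks against 27 in liver.

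Glucose and glycogen genes had 8.50 per 100 kb near 13 of 14, with Ppargc1a at 9, Gckr, the glucokinase regulator, at 8, Slc2a2, a glucose transporter, at 6, and the X-linked Pfkfb1 without any. Fatty acid oxidation had 9.0 per 100 kb near 12 of 16, with Cpt1a, which admits fatty acids to mitochondria, at 10, Acadl at 9, Cpt2 at 7 and Ehhadh at 6. Cyp4a10, Cyp4a14, Pex11a and Acadvl had none. Drug-metabolising enzymes had 10.1 per 100 kb near 20 of 22, with the aldehyde oxidase Aox3 at 25, Aldh1a1 at 13, Cyp1a2 at 7 and Fmo5 at 6, and Ugt2b5 and Cyp2a5 had none.

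Genes of hepatocyte transcription factors had 11.2 per 100 kb near 20 of 22. Onecut2, which controls liver and bile duct development, had 20, Nr5a2, a regulator of bile acid genes, 19 and Nr1h4, the bile acid receptor, 15. Hnf4a, the nuclear receptor that maintains hepatocyte identity, had 7 by midpoint, 4 in the span and 3 downstream, and its span held 15 liver peaks over 36815 bp and 19 ESC peaks over 20178 bp. Cebpa and Bhlha15 had none. Genes of growth and hormone signalling had 10.8 per 100 kb near 16 of 16, with Thrb, a thyroid hormone receptor, at 43, Ghr, the growth hormone receptor, at 34, Egfr at 30 and Igf1 at 18. Thrb held 1 ESC, 9 MEF and 6 brain peaks beside its 50 liver peaks, and Egfr 1, 47 and 19 beside 55.

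Markers of the other liver cells did not follow. Of 43 such genes outside the hepatocyte lists, 10 (23.3%) had a liver-only peak near them, at 1.12 per 100 kb, below the 2.41 of all genes. This was not particular to liver-only peaks, which stood at 0.464 times their level over all genes, against 0.550 times for other liver peaks. Of the liver peaks near these 43 genes 21.8% were liver-only, against 24.9% near all genes. None of 12 stellate cell and fibroblast genes had one, nor did 10 of 12 Kupffer cell and macrophage genes, with Csf1r at 4 and Cd68 at 1. Endothelial genes had them at 6 of 12, mostly Stab2 with 12 and Lyve1 with 4, while Stab1 and Clec4g were among those without any. Pecam1 and Erg had 2 each. Of 8 bile duct genes 3 had some, among them Sox9 with 3 and Muc1 with 1. Near the stellate cell and fibroblast genes, MEF-only peaks stood at 3.15 times and other liver peaks at 0.161 times their level over all genes.

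Of the lists from outside the liver, neuronal genes had 0.644 liver-only peaks per 100 kb near 7 of 14 genes, with 13 at Syt1, 3 at Rbfox3 and 2 at Grin2b, and pluripotency genes had 0.977 near 4 of 12, with at most 2, at Tdgf1. Housekeeping genes had 5.66 per 100 kb near 9 of 14, with 6 at Sdha, 5 at B2m, 4 at Tbp and 3 at Rpl13a. That is 2.35 times the level of all genes, and for other liver peaks the ratio was nearly equal, at 2.24. The hepatocyte lists therefore differed from housekeeping genes in these ratios to all genes, at 4.32 for liver-only and 1.68 for other liver peaks. In number, liver-only peaks were the fewer there too, at 10.4 against 12.2 per 100 kb.

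**Figure D5:**
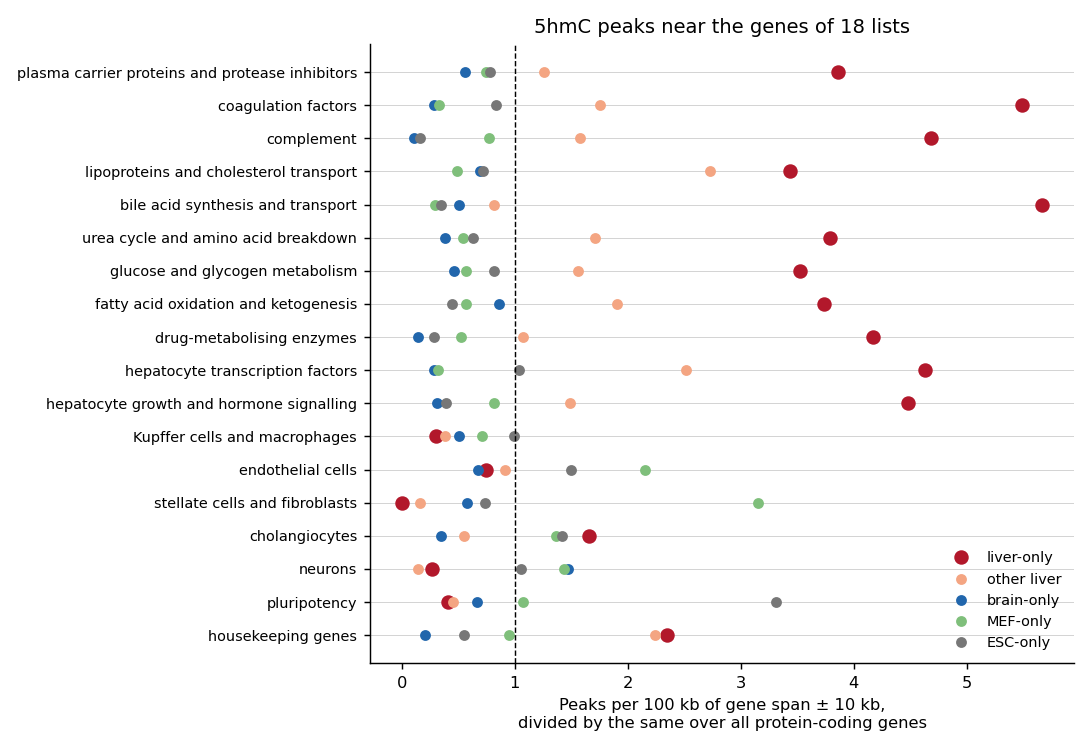
Peaks per 100 kb of gene span and 10 kb on each side, divided by the same over all protein-coding genes (x axis), for the genes of 18 lists (y axis) and 5 sets of peaks, with a dashed line at 1. Liver-only peaks (red) are the rightmost points in all 11 hepatocyte lists, from 3.43 to 5.67, and are at 0 for stellate cells and fibroblasts.

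The highest-scoring liver-only peak, at 1384, was also the widest (chr10:88954589-88960138, 5550 bp), in an intron of Nr1h4, and its middle is printed above. It was followed by peaks in an intron of Tspan4 (1344), in an exon of Gclc (1332), which encodes the catalytic subunit of the first enzyme of glutathione synthesis, in an intron of Bdh1 (1296), for an enzyme of ketone body metabolism, and at the promoter of Heatr7b1 (1267). Among the widest were also peaks of 4621 bp between genes, with its middle at -30472 bp from the TSS of Rd3, of 4614 bp in an intron of the copper transporter gene Atp7b, of 4435 bp in an intron of Slc16a12 and of 4340 bp in Gclc. All of these had widths that are rare among liver-only peaks, of which 1.96% exceeded 2 kb.

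The 100 kb window with most liver-only peaks held Pcx, for pyruvate carboxylase, a step of gluconeogenesis, with 28 of its 35 liver peaks. Next were windows at Larp4b (26 of 30), at the aldehyde oxidases Aox1 and Aox3 (24 of 37), at Vps13d (23 of 38) and at Gabbr2 (22 of 34). In places liver-only peaks followed each other, no more than 10 kb apart, with no peak of ESCs, MEFs or brain between them. There were 299 such runs of 5 or more, with 1819 peaks. The longest, named here after their values were seen, were 18 peaks over 59212 bp in Kynu, for kynureninase of tryptophan breakdown, the 15 of Apob, 14 upstream of and into Serpina5, 14 between genes on chromosome 13 and 13 over 35063 bp between genes on chromosome 2, where the nearest TSS was that of Foxa2, a forkhead factor of liver, 42521 bp away.

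At promoters, 1660 genes (7.47%) had a liver-only peak over 1 bp or more of the TSS ± 1 kb, and 105 had at least 1000 bp. For 5330417H12Rik, Heatr7b1, Pabpn1, Taar1 and Ugt1a2 liver-only peaks covered all 2000 bp, with 0 bp covered in ESCs, MEFs and brain. Ugt1a2 and Heatr7b1 are neighbours at the Ugt1a cluster of glucuronosyltransferases on chromosome 1, and the 3 others lie on chromosomes 7, 14 and 10. Of the 1415 genes with 5 or more liver-only peaks, 5 (0.353%) had no bp under a peak of ESCs, MEFs or brain. The same share over all genes is not given here, so the count is a description. The genes named here were picked by their values. Among the 5 were C4bp with 7, Slco1a1 with 6, and Slco1b2 and Timd2 with 5 each. Slco1a1 and Slco1b2 encode uptake transporters for bile acids and other organic anions.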

How the data were processed

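GLIB-Seq peaks of 6 libraries were used, and 2 RNA-Seq libraries of the series were not analysed here. The submitters' processing notes name CASAVA 1.8, Bowtie 0.12.7, MACS 1.4.1 and mm9, and per the methods unique hits were kept and redundant reads collapsed before peak calling. Each library has its own list. The deposited score is the authors' MACS value. Which threshold and control MACS was given is not given in the sources used here.

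One mitochondrial peak was left out of the liver list. Liver peaks with at least 1 bp in common with an ESC, MEF or brain peak were removed. Peaks were assigned by midpoint to promoters (TSS ± 1 kb), exons, introns and intergenic sequence of GENCODE (mouse release for NCBIM37, the mm9 assembly), with the longest span kept for each of 142 repeated symbols. Sequence was read in the middle 300 bp. All 276 list entries were found.

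Named are the 10 genes with most liver-only peaks, the 10 with most per 10 kb (at least 5 kb and 3 peaks), up to 4 of each list and its genes without any where these were 4 or fewer, the 5 most covered promoters, the genes at the 5 highest-scoring and 5 widest peaks and the 5 fullest windows, and Alb, Apoa1, Hnf4a and Cyp7a1, while a few genes that this rule picks are not reported here. The members, lists and rules were chosen with earlier results of these data known. Scripts ran in Python 3.11.15 (matplotlib 3.10.9, scipy 1.17.1, pandas 2.3.3, numpy 2.4.6), and the steps were tested on simulated peaks.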

Additional observations from a re-analysis of the deposited data

How the results depend on the processing

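With 1 library per condition there was no replicate to leave out, depth is unknown, and intervals cover counting error only. No paired analysis was possible because the groups hold a single library each. Scores reach down to different levels. The cause of each change below was not tested.

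Where only ESC, MEF and brain peaks with a score of at least 80 counted, liver-only peaks numbered 55896 (42.9% of liver peaks), with a median width of 902 bp, 61.4% in introns, 29.2% between genes, a CpG ratio of 0.264, 7.32% under shGFP peaks and 38.3% of genes reached. In the 50% of the liver list with the highest scores they numbered 9357 (14.4%), with 1225 bp, 7.79% in exons, 61.0% in introns, 28.7% between genes, 8.06% under shGFP peaks and 15.5% of genes. Where no such peak lay within 1 kb they numbered 18672 (14.3%), with 854 bp, 2.72% at promoters, 56.8% in introns, 33.4% between genes, 4.79% under shGFP peaks and 21.2% of genes. Where an overlap of at least 50% of the liver peak was needed to call it shared, the share was 33.8%, with 912 bp, 60.0% in introns, 30.4% between genes, 10.4% under shGFP peaks and 36.2% of genes. Without peaks that touched shGFP or shSuz12 peaks, the share was 22.7%, with 855 bp and 29.4% of genes, and the shGFP share, 0 by construction, was not run.

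Assigned by any overlap and not by midpoint, 4.70% of liver-only peaks were at promoters, 19.8% in exons, 65.2% in introns and 33.7% between genes, and a peak then counts in every segment it touches. Promoters of 2 kb on each side gave 6.63, 6.71, 57.3 and 29.4%, promoters of 500 bp gave 0.599% at promoters and 32.4% between genes, and all annotated genes gave 3.67% at promoters, 60.3% in introns and 28.8% between genes. Read over the whole peak, GC content was 43.9% and the CpG ratio 0.215. Asking for at least 2 peaks left 18.5% of genes, and 10 kb on each side of the span gave 47.5%. Ranking genes by peaks per 10 kb left 0 of the 10 genes with most peaks. The ratio of the hepatocyte lists to all genes in liver-only peaks per 100 kb, 4.32, was 3.56 with scores of at least 80, 6.61 in the highest-scoring 50%, 5.18 without peaks within 1 kb, 4.31 with the 50% overlap and 4.54 without peaks of shGFP and shSuz12, alternatives added after seeing the data.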
